A study of Mus musculus with 89 samples.

Results

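The response of mouse embryonic stem cells (ESCs) to the loss of the nuclear receptor Nr5a2 was compared between 2 culture media, by RNA-seq. For each gene, the response in a medium was the log2 change from +E+N to −N cells, and the medium difference was the response in FCS/LIF minus the response in 2i/LIF, so that a positive value marks a gene that ended higher in FCS/LIF relative to its control than in 2i/LIF. The comparison used the 10 RNA-seq samples of these 4 groups, of 20 RNA-seq samples and 89 samples in the whole series, and it was tested on 16147 genes.

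All 4 groups derive from EKOiE cells, an ESC line in which endogenous Esrrb was knocked out and replaced by a doxycycline (Dox)-inducible Esrrb transgene. All 10 samples received Dox at 1 µg/ml, so Esrrb was expressed from the transgene in controls and mutants alike. The +E+N cells are EKOiE, and the −N cells are EKOiE NrKO, in which the exon of Nr5a2 that encodes the first part of the DNA-binding domain was disrupted on both alleles. FCS/LIF is a serum medium and was sampled with 2 replicates per group, and 2i/LIF is a serum-free medium with a MEK and a GSK3 inhibitor and was sampled with 3 replicates per group. The study describes the replicates as independent experiments, and it mentions RNA-seq of a particular NrKO clone that the labels do not name. Any other property of a clone cannot be told apart from the Nr5a2 mutation. The FCS/LIF samples had between 38853062 and 45443379 counts and the 2i/LIF samples between 26653035 and 32526534.

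Nr5a2 is an orphan nuclear receptor that binds DNA as a monomer, and Esrrb is another orphan nuclear receptor that recognises a closely similar motif. Both are part of the transcription factor network that maintains naive pluripotency together with Oct4 (Pou5f1), Sox2, Nanog, Klf4, Tfcp2l1 and Tbx3. 2i/LIF holds ESCs in a homogeneous naive state by blocking Erk signaling and activating the Wnt pathway through GSK3 inhibition, whereas cells in FCS/LIF are more heterogeneous and express more genes of later developmental stages.

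The mutated gene itself was examined first. Nr5a2 was at 39.8 and 36.1 CPM (counts scaled to library size) in the FCS +E+N samples and at 27.1 and 25.5 CPM in the FCS −N samples. In 2i/LIF it was at 80.1, 70.6 and 61.8 CPM in +E+N and at 78.4, 64.3 and 63.9 CPM in −N, so the 2i/LIF groups overlapped. The disruption affects 1 exon, and transcripts of the disrupted alleles still count as Nr5a2, so this level does not check the knockout. Neither response passed the test (FCS/LIF log2 change −0.53, adjusted p = 0.495, and 2i/LIF log2 change −0.04, adjusted p = 0.921, edgeR quasi-likelihood test), and the medium difference was −0.49 ± 0.291 (SE; adjusted p = 0.472). Esrrb was at 271 and 352 CPM in FCS +E+N, 219 and 259 CPM in FCS −N, 515, 608 and 604 CPM in 2i +E+N and 414, 530 and 526 CPM in 2i −N. Its medium difference was −0.15 ± 0.241 (SE; adjusted p = 0.844).

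The question the comparison answers is which genes responded to the loss of Nr5a2 differently in the 2 media. Of the 16147 genes, 120 had a medium difference at an adjusted p below 0.01 (0.743% of genes tested), 66 of them with a higher response in FCS/LIF (0.409%) and 54 with a lower one (0.334%). The called differences ranged from −7.46 to 4.47 on the log2 scale, with a median of 1.23 among the higher genes and −2.21 among the lower ones, and 118 of the 120 exceeded 1.5-fold. The −7.46 was that of Car4, which had 0 counts in 2i +E+N, so its size is not well determined. Called genes changed mainly in 2i/LIF, where 105 of the 120 had the larger absolute response. The median absolute response of the called genes was 1.46 in 2i/LIF against 0.302 in FCS/LIF, while over all genes tested it was 0.171 and 0.122. With replicate number within medium as a block, 686 genes were called, 384 higher and 302 lower, and these included all 120.

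Most of the 66 higher genes fell in 2i/LIF upon loss of Nr5a2, and most of the 54 lower genes rose there. Among the 66, the 2i/LIF estimate was below 0 for all 66, and the fall passed the limits used within a medium (adjusted p below 0.01 and more than 1.5-fold) for 51. Among the 54, the 2i/LIF rise passed those limits for 50. In FCS/LIF, 2 of the 66 fell and none rose by these limits, while 2 of the 54 rose and 2 fell. Under the block by replicate, 7 of the 66 rose and 2 fell in FCS/LIF, and 6 of the 54 rose and 3 fell. No gene passed in both media in opposite directions without the block. With it 15 genes did, 4 of them among the 120 (Apobr, Cald1, Irx2 and Lcp1, each up in FCS/LIF and down in 2i/LIF). Within each medium by itself, 17 genes passed in FCS/LIF (0.105% of genes tested, 6 up and 11 down) and 792 in 2i/LIF (4.90%, 373 up and 419 down). With the replicate block these counts were 199 (141 up and 58 down) and 1327 (629 up and 698 down). Leaving out any 1 of the 4 FCS/LIF samples left 48 to 55 genes with a medium difference and 0 to 5 genes in FCS/LIF. Without replicate 2 of 2i +E+N or of 2i −N, 72 and 67 genes had a medium difference, and without the former 506 genes passed in 2i/LIF. FCS/LIF had fewer samples, and its responses had a median standard error of 0.167, against 0.138 in 2i/LIF. With both 2i/LIF groups reduced to 2 of their 3 replicates, an alternative added after seeing the data, the 3 possible pairs gave 303, 478 and 493 genes in 2i/LIF, and 42, 79 and 80 genes with a medium difference.

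**Figure D1:**
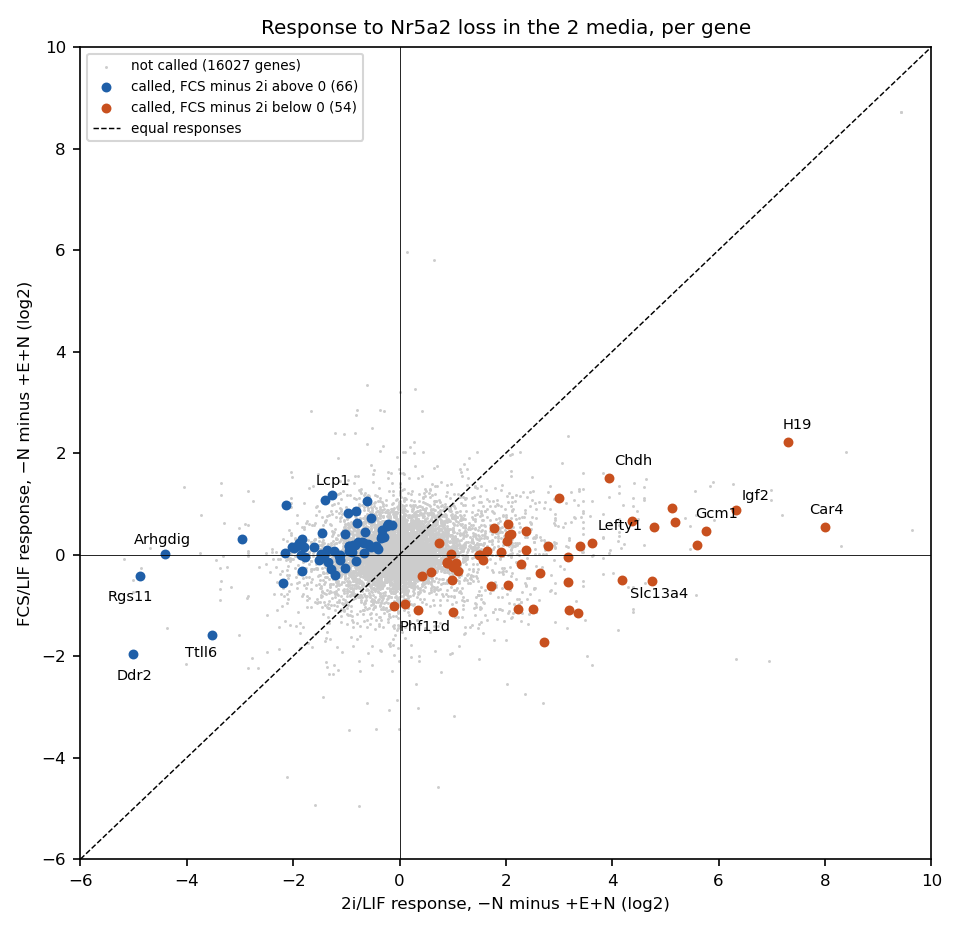
Response of each of 16147 genes to loss of Nr5a2 in 2i/LIF (horizontal axis) and FCS/LIF (vertical axis), both as log2 changes from +E+N to −N. Blue and orange points are the 66 and 54 genes with a called medium difference, and they spread along the horizontal axis while most stay near 0 on the vertical one. The dashed line marks equal responses.

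Over all genes, the least-squares slope through 0 of the FCS/LIF response on the 2i/LIF response was 0.111, with a Pearson r of 0.191 across genes, which are not independent replicates. Over the 11588 genes that averaged 100 or more counts the slope was 0.152 and r was 0.286. The responses share no sample. Responsive genes were also chosen by contrasts that leave out the 10 samples, between the 10 from which Dox had been withdrawn for 2 days (−E and −E−N). The spread and normalization behind these contrasts came from the common fit of all 20 samples. Esrrb, whose transgene depends on Dox, was at 74.2 and 65.1 CPM in FCS −E, 31.3 and 28.9 CPM in FCS −E−N, 441, 433 and 380 CPM in 2i −E and 171, 161 and 104 CPM in 2i −E−N. Counts in 2i −E thus stayed much nearer to 2i +E+N (515 to 608 CPM) than FCS −E did to FCS +E+N (271 to 352 CPM). Gene counts do not tell transgene reads from those of the disrupted endogenous gene. The study reports that Esrrb binding to DNA was lost in the serum-free medium after Dox withdrawal. The 2350 genes that passed the limits between 2i −E−N and 2i −E had a median response, signed by the direction seen there, of 0.70 in 2i/LIF and 0.18 in FCS/LIF, and 82.3% of them responded more in 2i/LIF. The 437 genes that passed between FCS −E−N and FCS −E gave the opposite order, with medians of 0.52 in FCS/LIF and 0.15 in 2i/LIF, and only 28.8% of them responded more in 2i/LIF. Both sets are given as a description, without a test.

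Among the genes named by size, the largest differences below 0 were those of the imprinted neighbours Igf2 and H19. Igf2 encodes a fetal growth factor expressed from the paternal allele, and H19 is a maternally expressed long noncoding RNA from the same domain. Igf2 (chr7:142650766-142666816, minus strand, mm10) was almost silent in 2i +E+N, at 0.770, 0.706 and 0.905 CPM, and reached 73.1, 65.2 and 54.5 CPM in 2i −N, a log2 change of 6.33. In FCS/LIF it was already at 290 and 353 CPM in +E+N and went to 485 and 695 CPM in −N, a log2 change of 0.88 that did not pass the test (adjusted p = 0.105) but passed with the replicate block (adjusted p = 0.00197). The medium difference was −5.45 ± 0.389 (SE; adjusted p = 1.63e-06). All 2i −N samples stayed below all FCS/LIF samples. H19 (chr7:142575529-142578143, minus strand) was at 1.48, 1.23 and 1.98 CPM in 2i +E+N and 271, 245 and 232 CPM in 2i −N. In FCS/LIF it was at 181 and 231 CPM in +E+N and 823 and 1097 CPM in −N. H19 therefore rose in both media, by 2.22 in FCS/LIF (adjusted p = 0.00212) and by 7.31 in 2i/LIF (adjusted p = 1.22e-09) on the log2 scale, and the difference between the media was −5.09 ± 0.459 (SE; adjusted p = 1.28e-05). Igf2os, annotated as antisense to Igf2 (chr7:142659693-142670356, plus strand), had a difference of −4.21 ± 0.576 (SE; adjusted p = 0.000738). The libraries were stranded, but whether the counting used strand is not given in the sources used here, so reads of Igf2 and Igf2os cannot be told apart.

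The upstream sequence of the first annotated Igf2 start (RefSeq, GRCm38.p6, chr7:142666817-142667066, minus strand) is shown because Igf2 had the largest difference among the genes named by size. It holds neither letter sequence of the Nr5a2 and Esrrb motif described at the end, so it carries no capitals.
Igf2 promoter: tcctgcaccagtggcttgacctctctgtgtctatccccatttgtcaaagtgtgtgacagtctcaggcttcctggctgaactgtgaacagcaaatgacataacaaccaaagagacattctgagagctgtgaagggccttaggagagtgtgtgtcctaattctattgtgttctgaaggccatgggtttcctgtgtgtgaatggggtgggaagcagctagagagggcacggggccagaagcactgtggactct

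The other imprinted genes were examined as a list. Of 30 measured imprinted genes, 9 rose and 0 fell in 2i/LIF, 2 rose and 0 fell in FCS/LIF (with the replicate block 11 rose and 1 fell in 2i/LIF and 5 rose and 1 fell in FCS/LIF), and the medium difference was called for 2, H19 and Igf2, both lower. The median medium difference of the list was −0.45, against 0 over all genes. Over the 16147 genes tested, 373 rose and 419 fell in 2i/LIF (4.90% passed), and 6 rose and 11 fell in FCS/LIF (0.105%). With the block 629 rose and 698 fell in 2i/LIF, and 141 rose and 58 fell in FCS/LIF. The medium difference was called for 0.743% of genes without the block. The counts of this and the later lists were not tested against these shares. Peg10, a retrotransposon-derived gene needed in the placenta, went from 13.0, 11.8 and 18.7 CPM to 342, 346 and 387 CPM in 2i/LIF and from 536 and 653 CPM to 1376 and 1959 CPM in FCS/LIF. Its medium difference of −3.14 ± 0.626 (SE; adjusted p = 0.0124) missed the limit and passed it with the replicate block (adjusted p = 1.11e-05), as did those of Cdkn1c, a cell-cycle inhibitor (−1.64 ± 0.403 SE, adjusted p = 0.0359 without the block), and the noncoding RNA Mirg (−0.65 ± 0.226 SE, adjusted p = 0.152 without the block). With the block the response in FCS/LIF also passed for Peg10 (adjusted p = 0.00135), and Cdkn1c fell in FCS/LIF (adjusted p = 0.000105) and rose in 2i/LIF (adjusted p = 0.00266). Mest, a paternally expressed gene of the hydrolase family, passed in both media. It rose by 1.69 in FCS/LIF (adjusted p = 0.00201) and by 1.27 in 2i/LIF (adjusted p = 0.000165), with a difference of 0.42 and a 95% interval from −0.17 to 1.01.

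Several genes of signaling pathways rose in 2i/LIF and did not pass in FCS/LIF. Lef1, a transcription factor that mediates Wnt signaling with β-catenin, was at 0.963, 0.594 and 0.661 CPM in 2i +E+N and at 9.25, 5.50 and 5.46 CPM in 2i −N, while all 4 FCS/LIF samples lay between 25.4 and 27.6 CPM. Its medium difference was −3.21 ± 0.354 (SE; adjusted p = 8.71e-05). Sp8, a zinc-finger transcription factor and Wnt target, was at 0.930, 1.19 and 0.905 CPM in 2i +E+N and 5.33, 3.98 and 5.50 CPM in 2i −N, and stayed below 1 CPM in all 4 FCS/LIF samples. The difference was −2.48 ± 0.310 (SE; adjusted p = 0.000337). Of 17 measured Wnt and β-catenin targets, these 2 were called, both lower, and 6 rose and 0 fell in 2i/LIF (9 and 0 with the replicate block), while none passed in FCS/LIF. The list's median difference was −0.70. Axin2, a negative regulator of the pathway, had a difference of −0.70 ± 0.367 (SE; adjusted p = 0.385).

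Lefty1 and Lefty2 are secreted antagonists of Nodal, and lie close to each other on chromosome 1. Lefty1 went from 6.22, 6.54 and 4.35 CPM in 2i +E+N to 63.0, 85.7 and 61.3 CPM in 2i −N, and was at 101 and 103 CPM and 115 and 125 CPM in FCS +E+N and −N. Lefty2 went from 9.72, 8.43 and 6.75 CPM to 36.0, 42.3 and 27.9 CPM in 2i/LIF, and from 40.6 and 40.2 CPM to 55.5 and 52.2 CPM in FCS/LIF. In 2i/LIF neither gene's groups overlapped. The medium differences were −3.39 ± 0.330 (SE; adjusted p = 2.47e-05) for Lefty1 and −1.68 ± 0.269 (SE; adjusted p = 0.00265) for Lefty2, whose call was lost without any 1 of the 4 FCS/LIF samples. Of 16 measured genes of Nodal and activin signaling these 2 were called, 3 rose in 2i/LIF and none passed in FCS/LIF. With the replicate block Tdgf1 was called as well, in the opposite direction (0.41). With it 3 rose and 2 fell in 2i/LIF, and 1 (Inhbb, an activin subunit) fell in FCS/LIF. Nodal, the ligand that they antagonise, had a difference of 0.22 with a 95% interval from −0.37 to 0.81.

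**Figure D2:**
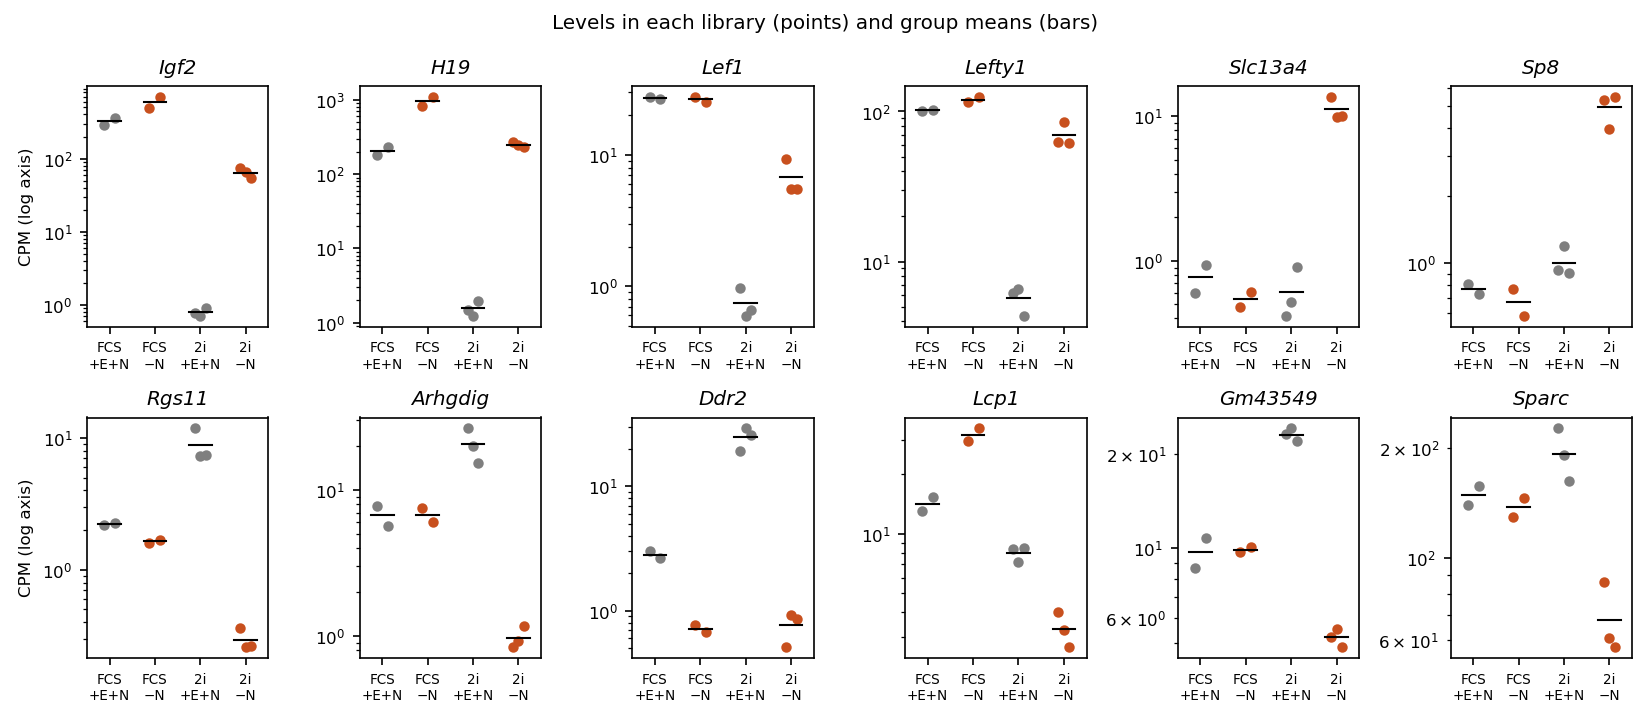
CPM of 12 genes in each of the 10 samples (points, log axis, a separate scale per gene) with group means (bars), in FCS/LIF (2 samples per group) and 2i/LIF (3 samples per group), +E+N in grey and −N in orange. The upper row holds genes that were higher in 2i −N than in 2i +E+N, and the lower row genes that were lower there.

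Other lower genes named by size were of varied function. Slc13a4, a sulfate transporter, was below 1 CPM in all FCS/LIF samples and in 2i +E+N (0.417, 0.520 and 0.905 CPM), and reached 13.6, 9.89 and 10.0 CPM in 2i −N, so that 2i −N stood apart from the 3 other groups (medium difference −4.69 ± 0.605 SE, adjusted p = 0.000453). Ripply1, a transcriptional repressor of somite formation, went from 0.289, 0.446 and 0.418 CPM to 2.65, 2.32 and 2.25 CPM in 2i/LIF and was between 4.37 and 6.24 CPM in FCS/LIF (difference −3.01 ± 0.370 SE, adjusted p = 0.000302). Apol6, of the apolipoprotein L family, had a difference of −2.33 ± 0.432 (SE; adjusted p = 0.00794), and AU015836 of −3.21 ± 0.602 (SE; adjusted p = 0.00880). The call of Apol6 was lost in 8 and that of AU015836 in 9 of the 10 fits that left out 1 sample. Gbx2, a homeobox gene induced by LIF and Stat3, rose from 51.5, 42.8 and 44.7 CPM to 83.0, 83.9 and 89.6 CPM in 2i/LIF and was at 21.3 ± 0.846 and 19.3 ± 0.273 CPM in FCS +E+N and −N (mean ± SD, n = 2; difference −1.02 ± 0.157 SE, adjusted p = 0.00192). It was the only called gene of 15 measured in the LIF and Stat3 list, and its call was lost in 3 of the 10 fits that left out 1 sample. With the replicate block Pim1 of that list was called too, in the opposite direction (0.61).

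For some lower genes the 2i +E+N level was at the limit of detection. Car4, a carbonic anhydrase, had 0 counts in the 3 samples of 2i +E+N and 77 counts in 2i −N, at least 9.13-fold higher when the controls are set to 3 counts per library, and was at 13.1 and 14.2 CPM and 15.7 and 24.0 CPM in FCS +E+N and −N. Gcm1, a transcription factor of the placenta, had 4 counts in 2i +E+N and 220 in 2i −N, a ratio of 58.7 with a 95% counting interval from 22.6 to 217. The guanylate-binding protein genes, which are induced by interferon, followed the same course. Gbp2 had a ratio of 38.9 (interval 14.9 to 145), Gbp2b of 30.6 (10.1 to 151) and Gbp7 of 9.60 (3.44 to 37.1) between 2i −N and 2i +E+N. These 3 are related genes, between which reads can be split uncertainly, and intervals cover counting error only. Acta2, smooth muscle actin, had 2 counts in 2i +E+N and 45 in 2i −N (ratio 24.0, interval 6.27 to 204), against 15.6 and 14.6 CPM and 23.9 and 23.7 CPM in FCS +E+N and −N. The FCS/LIF response of Acta2 passed with the replicate block (log2 change 0.66, adjusted p = 0.00371). The Acta2 call was lost in 9 of the 10 fits that left out 1 sample, and its difference was 0.19 on the log2(TPM + 1) scale. Except for Acta2, these genes were picked with their values in view.

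The 2-cell-like state is one that a small fraction of ESCs enters transiently. All 10 measured members had a medium difference below 0, with a median of −2.98, and a median response of 2.16 in 2i/LIF against −0.87 in FCS/LIF. Zscan4a was called, at 5.72 and 9.35 CPM in FCS +E+N, 3.92 and 3.31 CPM in FCS −N, 1.16, 1.11 and 1.53 CPM in 2i +E+N and 4.46, 5.68 and 11.5 CPM in 2i −N (difference −3.57 ± 0.655 SE, adjusted p = 0.00775). In 2i/LIF, 5 members rose, and none passed in FCS/LIF. With the replicate block, 8 of the 10 were called, 8 rose in 2i/LIF and 1 fell in FCS/LIF. The summed level of the list was 45.8 to 71.6 CPM in FCS +E+N, 28.8 to 32.8 in FCS −N, 11.2 to 18.5 in 2i +E+N and 42.5 to 101 in 2i −N. The call of Zscan4a, annotated as an unprocessed pseudogene, was lost in 9 of the 10 fits that left out 1 sample. Outside the list, Zscan4-ps1 (−4.51, adjusted p = 0.00203) and Zscan4-ps3 (−4.27, adjusted p = 0.00161) were also called by the edgeR quasi-likelihood test. The Zscan4 genes are near-identical copies that share reads, and are not independent of each other. In bulk samples more cells in this state and more RNA per cell cannot be told apart.

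On the opposite side, the genes that fell in 2i/LIF were led by Rgs11, a regulator of G-protein signaling, and Arhgdig, a GDP-dissociation inhibitor. Rgs11 was at 11.8, 7.28 and 7.38 CPM in 2i +E+N and 0.363, 0.258 and 0.262 CPM in 2i −N, and at 2.17 and 2.25 CPM and 1.61 and 1.69 CPM in FCS +E+N and −N (difference 4.47 ± 0.408 SE, adjusted p = 1.28e-05). Arhgdig was at 26.4, 20.1 and 15.2 CPM in 2i +E+N and 0.834, 0.922 and 1.16 CPM in 2i −N, while its FCS/LIF groups overlapped at 7.79 and 5.66 and 7.52 and 6.03 CPM (difference 4.42 ± 0.497 SE, adjusted p = 0.000105). Both ended lower in 2i −N than in either FCS/LIF group. Their annotated spans overlap on opposite strands of chromosome 17 (Rgs11 chr17:26202951-26211324, plus strand; Arhgdig chr17:26199183-26207786, minus strand), so reads in the shared stretch could count for either. Caskin1, a scaffold protein of synapses, lies on the same chromosome (chr17:24488601-24508671, plus strand) and had a difference of 3.11 ± 0.441 (SE; adjusted p = 0.000919). It fell from 4.40, 6.13 and 9.33 CPM to 1.78, 1.29 and 1.46 CPM in 2i/LIF and was at 3.47 and 3.85 CPM and 5.29 and 9.17 CPM in FCS +E+N and −N.

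Ddr2, a collagen receptor kinase, fell in both media to similar final levels. It went from 3.00 and 2.64 CPM to 0.769 and 0.670 CPM in FCS/LIF, a log2 change of −1.97 (adjusted p = 0.00373), and from 19.2, 29.1 and 25.9 CPM to 0.508, 0.922 and 0.861 CPM in 2i/LIF, a log2 change of −5.01 (adjusted p = 1.22e-09). The −N samples of the 2 media overlapped, and the difference of 3.05 ± 0.384 (SE; adjusted p = 0.000369) came with control levels that were log2 −3.13 apart (FCS minus 2i). Lcp1, an actin-bundling protein, had the largest FCS/LIF estimate of the named higher genes, which missed the limit without the replicate block. It went from 13.0 and 15.3 CPM to 29.5 and 34.2 CPM in FCS/LIF (adjusted p = 0.0364) and from 8.34, 7.20 and 8.49 CPM to 4.03, 3.25 and 2.66 CPM in 2i/LIF (adjusted p = 0.000943), and with the block both responses passed (adjusted p = 0.000319 and 2.32e-05), in opposite directions, with a difference of 2.44 ± 0.324 (SE; adjusted p = 0.000561) without the block. Neither group pair overlapped.

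Long noncoding RNAs were among the higher genes. Gm43549 had the most precise estimate of these, at 23.1, 24.1 and 21.9 CPM in 2i +E+N, 5.22, 5.53 and 4.83 CPM in 2i −N and between 8.65 and 10.8 CPM in all FCS/LIF samples (difference 2.17 ± 0.179 SE, adjusted p = 7.84e-06). Gm48362 (2.18), Gm47939 (2.15) and Gm42047 (2.11) had medium differences of nearly the same size, and in each the FCS/LIF groups differed by less than 0.4 on the log2 scale. C130074G19Rik, which is annotated as protein coding, fell in 2i/LIF from 32.9 ± 6.56 CPM to 8.89 ± 1.13 CPM (mean ± SD, n = 3) (difference 2.12 ± 0.305 SE, adjusted p = 0.000948). Of the 120 called genes 7 were annotated as lincRNA (2.63% of all genes tested were), 5 of them higher.

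Among genes of other cell types, Sparc, an extracellular matrix protein abundant in primitive endoderm, was called. It went from 226, 191 and 162 CPM to 86.3, 60.5 and 57.2 CPM in 2i/LIF, while the FCS/LIF groups overlapped at 140 and 157 and 130 and 146 CPM (difference 1.40 ± 0.230 SE, adjusted p = 0.00332). The call of Sparc was lost in 5 of the 10 fits that left out 1 sample, among them those without each of the 4 FCS/LIF samples. Of the 17 measured primitive endoderm markers, 3 fell and 0 rose in 2i/LIF and none passed in FCS/LIF. The basement membrane genes Col4a1 and Lama1 were called as well with the replicate block, when 5 markers fell in 2i/LIF and 1 rose in FCS/LIF. The summed level of the list was 657 to 757 CPM in 2i +E+N and 514 to 515 CPM in 2i −N. In FCS/LIF it was 1087 to 1183 CPM in +E+N and 1098 to 1198 CPM in −N. The sum includes Sparc: in 2i/LIF the mean sum went from 711 to 515 CPM, and Sparc within it from 193 to 68.0 CPM. The defining factors Gata6 (1.22), Gata4 (0.46) and Sox17 (−1.35) had differences of mixed sign that did not pass. Among 13 trophectoderm markers, 5 rose in 2i/LIF, none passed in FCS/LIF and no medium difference was called. With the replicate block, 5 rose in each medium. Gata2, Krt18 and Krt8 were then called lower, and Tfap2c higher (0.63). Krt18, an epithelial keratin, went from 3.72, 4.23 and 5.64 CPM to 32.5, 30.2 and 31.2 CPM in 2i/LIF and from 109 and 125 CPM to 232 and 321 CPM in FCS/LIF (difference −1.55 ± 0.363 SE, adjusted p = 0.0285, and adjusted p = 9.85e-05 with the replicate block). The summed level of the trophectoderm list was 138 to 156 CPM in 2i +E+N and 222 to 225 CPM in 2i −N, and 474 to 537 and 894 to 1184 CPM in the FCS/LIF groups. The part of a changed mixture of cells in these results was not tested.

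Pluripotency genes did not give a called medium difference without the replicate block. Of 8 measured core and 19 measured naive pluripotency genes none was called, with list medians of −0.14 and −0.15. With the block, Lin28a of the core list and Dppa3 and Klf2 of the naive list were called lower, and Tdgf1 of the naive list higher. Nanog was at 286 and 234 CPM in FCS +E+N, 190 and 187 CPM in FCS −N, 786, 937 and 1008 CPM in 2i +E+N and 575, 642 and 688 CPM in 2i −N. In both media its −N samples lay below all +E+N samples, the log2 changes were −0.47 (adjusted p = 0.112) in FCS/LIF and −0.52 (adjusted p = 0.00184) in 2i/LIF, and the medium difference was 0.05 with a 95% interval from −0.27 to 0.38. Tbx3, a T-box factor of the naive network, was at 42.3 and 57.1 CPM and 25.5 and 33.2 CPM in FCS/LIF and at 169, 206 and 203 CPM and 114, 132 and 141 CPM in 2i/LIF, in +E+N and −N each, and its groups did not overlap either, with a response in FCS/LIF that passed with the replicate block (log2 change −0.76, adjusted p = 0.000137, against 0.0574 without it; difference −0.18, interval −0.63 to 0.27). For Pou5f1 the interval ran from −0.50 to 0.30, for Sox2 from −0.47 to 0.39, for Klf4 from −0.28 to 0.57, for Tfcp2l1 from −0.48 to 0.32 and for Zfp42 from −0.43 to 0.26. These intervals exclude differences above 1 on the log2 scale. For Utf1, a chromatin factor at 23.5, 46.4 and 48.6 CPM in the 2i +E+N samples, the interval was wider, from −1.80 to 0.65.

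**Figure D3:**
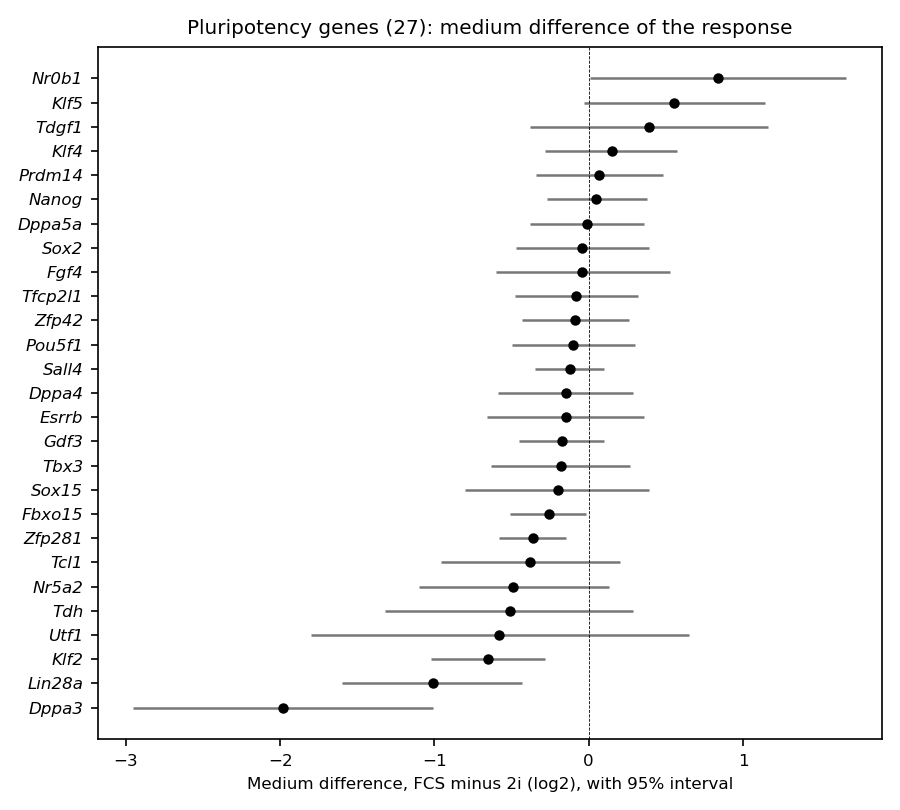
Medium difference of the response (FCS minus 2i, log2) of 27 core and naive pluripotency genes, with 95% intervals from the fit of all genes. Most intervals cross 0, and Dppa3, Lin28a, Klf2, Zfp281 and Fbxo15 lie below 0 and Nr0b1 above it. None of these passed the limit after adjustment over all genes without the replicate block.

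The pluripotency genes furthest from 0 passed only in part. Dppa3, a maternal factor that protects DNA methylation, rose by 2.09 in 2i/LIF (adjusted p = 0.000239) and changed by 0.11 in FCS/LIF (adjusted p = 0.990). Its difference of −1.98 ± 0.460 (SE; adjusted p = 0.0270) missed the limit and passed with the replicate block (adjusted p = 0.00356), as did those of Lin28a (−1.01), Klf2 (−0.65) and Tdgf1 (0.39, higher). Nr0b1, a nuclear receptor that interacts with Nr5a2, had a difference of 0.84 (adjusted p = 0.323). It fell in 2i/LIF (log2 change −1.32, adjusted p = 0.00240) and not detectably in FCS/LIF (−0.49, adjusted p = 0.746).

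Genes of the exit from naive pluripotency were examined as a list of 16 measured formative and primed epiblast genes. Of these 4 rose and 1 fell in 2i/LIF, none passed in FCS/LIF, and Lef1 alone was called for the medium difference, joined by Krt18 and Sox4 with the replicate block, when 6 rose and 1 fell in 2i/LIF and 1 rose in FCS/LIF. The list's median difference was −0.45. The de novo DNA methyltransferase genes Dnmt3b and Dnmt3l rose in 2i/LIF by 0.80 (adjusted p = 6.83e-05) and 0.90 (adjusted p = 0.00340), and their differences were −0.55 ± 0.161 (SE; adjusted p = 0.0806) and −0.87 ± 0.276 (SE; adjusted p = 0.107). Otx2, a homeobox factor of the primed state, had a log2 change of −1.70 in 2i/LIF (adjusted p = 0.00195) and had a difference of 1.51 ± 0.394 (SE; adjusted p = 0.0477).

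**Figure D4:**
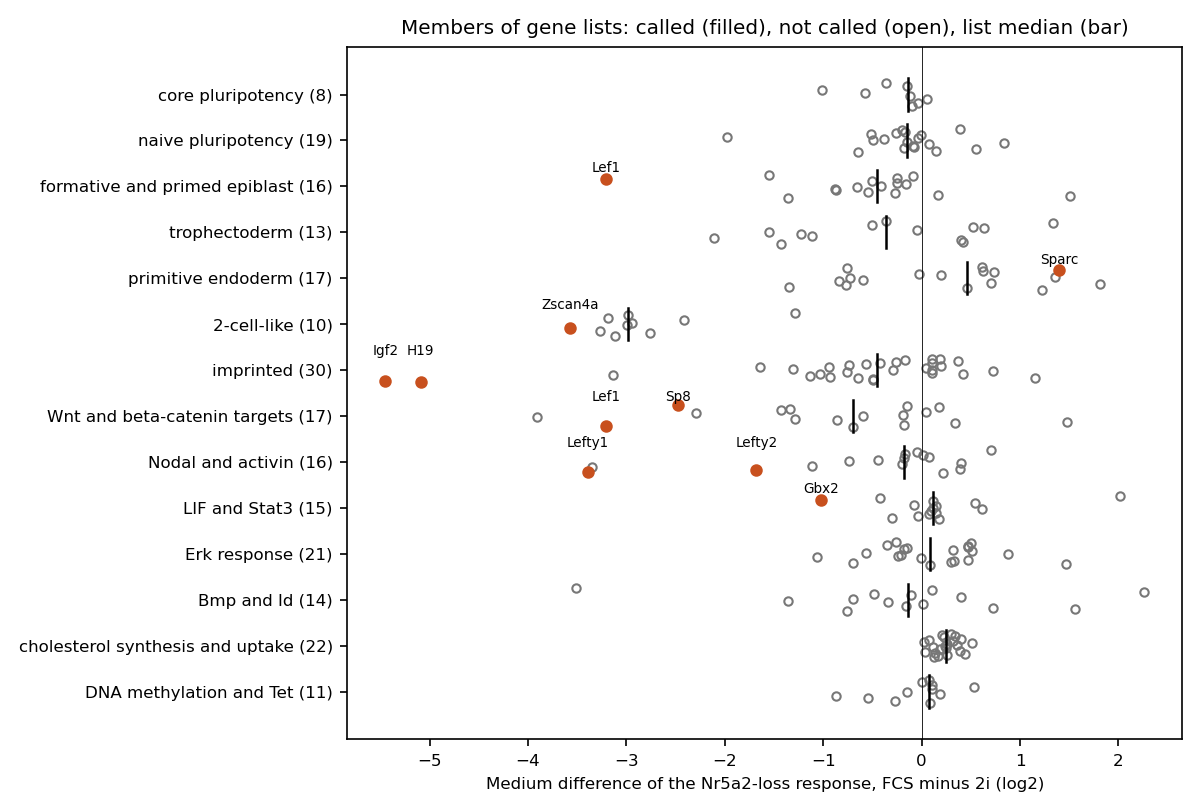
Medium difference (FCS minus 2i, log2) of the measured members of 14 gene lists, with called genes filled and named, other genes open and the list median as a bar. The 2-cell-like list is the one whose members all lie below 0, and the cholesterol list is the most compact.

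Other lists held no called member. None was called among 21 Erk response genes (median difference 0.08), 14 Bmp and Id genes (−0.13), 11 DNA methylation and Tet genes (0.07), 22 genes of cholesterol synthesis and uptake (0.24), 26 of glycolysis and hypoxia (−0.09), 19 Atf4-dependent amino acid starvation genes (0.03), 15 p53 targets (0.06), 18 collagens (−0.29), 24 other nuclear receptors (−0.06), 14 germline genes (0.05), 8 neural genes (−0.41) or 14 primitive streak and mesoderm genes (−0.19). With the replicate block, Vegfa, Aass, Col4a1 and Tubb3 of these lists were called higher. Id4, Egln3, Col18a1, Col2a1, Pparg, Rarg, Rpl10l, Map2 and Pax6 were called lower. The 22 cholesterol genes all lay above 0, between 0.02 and 0.51, while the median over all genes was 0. None of the 22 passed in either medium, with or without the block, and genes of 1 pathway are not independent replicates. Of 15 genes known as Nr5a targets in steroidogenic tissue and liver, 6 were measured, none was called, and the median difference was 0.71. Scarb1, a lipoprotein receptor of that list, had a difference of 0.70 ± 0.153 (SE; adjusted p = 0.0193), and adjusted p = 0.00276 with the replicate block. Among 9 fibroblast markers only Acta2 was called.

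A few called genes, chosen here by their values, differed mainly through FCS/LIF. Phf11d was at 6.74 and 6.33 CPM in FCS +E+N and 3.49 and 2.98 CPM in FCS −N, while its 2i/LIF groups overlapped between 54.0 and 70.7 CPM (difference −0.92 ± 0.149 SE, adjusted p = 0.00296). Slc4a5, a bicarbonate transporter, fell from 10.4 and 9.65 CPM to 4.64 and 4.71 CPM in FCS/LIF and was at 56.0, 53.1 and 44.5 CPM and 72.0, 70.3 and 54.2 CPM in 2i +E+N and −N (difference −1.45, 95% interval −1.88 to −1.03, adjusted p = 0.000738). These were the 2 genes of the lower set whose fall passed in FCS/LIF. Ets2, an Erk-responsive transcription factor, was at 20.8 and 20.5 CPM and 29.9 and 32.6 CPM in FCS +E+N and −N. It did not pass the limits in FCS/LIF (adjusted p = 0.0311) except with the replicate block (adjusted p = 0.00129), and its difference was 0.82 ± 0.152 (SE; adjusted p = 0.00782).

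The chromosomal position of the called genes was uneven for the X chromosome. Of the 54 lower genes 10 lay on X (18.5%), of the 66 higher genes 0, and of all genes tested 606 (3.75%). The 10 were Klhl13, Rhox6, AU015836, Foxo4, Lpar4, Tspan6, Armcx4, Armcx2, Ripply1 and Amot, listed because the count was small. Klhl13, a substrate adaptor of a ubiquitin ligase, went from 55.4, 49.7 and 45.1 CPM to 187, 142 and 139 CPM in 2i/LIF and was between 809 and 904 CPM in FCS/LIF (difference −1.57 ± 0.172 SE, adjusted p = 8.71e-05). Over the 411 X-linked genes that averaged 100 or more counts, the median log2 response was 0.08 for 2i/LIF, against 0.019 for FCS/LIF. Relative to the mean of the 2i +E+N samples, the X-linked median was 0.124, 0.071 and 0.077 in the 2i −N samples and between −0.021 and 0.044 in the 2i +E+N samples, so the groups did not overlap but the shift was small beside the changes of the 10 genes.

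The same contrast was available in 10 other samples that share none with the comparison but carry the same mutations, from which Dox had been withdrawn (FCS −E−N minus FCS −E, less 2i −E−N minus 2i −E). There 1115 genes were called (6.91% of genes tested, 596 higher and 519 lower). The spread for both contrasts was estimated in the common fit of all 20 samples. Of the 120 genes, 115 were called there with the same sign, 119 had the same sign, and 72.1% of all genes tested had the same sign. Over the 120 genes the slope through 0 was 1.056 and Pearson's r was 0.962 across genes. Igf2 had a difference of −6.09 there, H19 of −5.33, Lef1 of −3.47, Rgs11 of 4.63 and Ddr2 of 3.89. Among the 119 genes of equal sign 84 had a larger absolute difference after Dox withdrawal. Esrrb counts stood lower in FCS −E than in 2i −E, as given above, and these counts do not measure the remaining Esrrb protein. The loss of Esrrb binding that the study reports for the serum-free medium was not checked here.

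The Lefty genes had the lowest p among the 120 for a change between the 2 sets of samples. Lefty2 had the opposite sign after Dox withdrawal, 1.15 against −1.68, and Lefty1 had −0.38 against −3.39. The test of the change between the 2 sets of samples gave adjusted p = 0.0228 for Lefty1 and 0.0154 for Lefty2, and 0.0228 for Gca. Igf2os had a larger change in size, −7.53 against −4.21 (adjusted p = 0.562). No gene of the 16147 passed 0.01 in that test by edgeR, 1011 had an unadjusted p below 0.05, and 23 of these were among the 120.

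**Figure D5:**
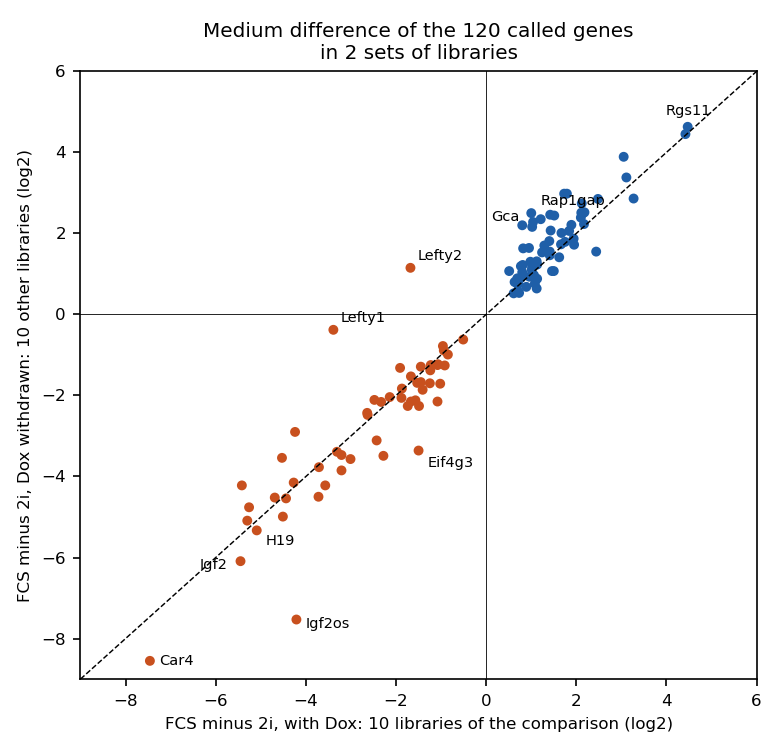
Medium difference (FCS minus 2i, log2) of the 120 called genes in the 10 samples of the comparison (horizontal axis) and in 10 Dox-withdrawn samples that share none with them (vertical axis). Points gather along the dashed line of equal values, and Lefty1 and Lefty2 lie well above it.

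Many of the called genes also differed in level between the media in cells without the Nr5a2 mutation. This was read in the −E samples, which are not part of the comparison. Dox had been withdrawn from them, so their levels also hold any response to Dox withdrawal that differed between the media. Of the 54 lower genes, 45 were higher in FCS −E than in 2i −E, and 29 of them by more than 2 on the log2 scale, against 49.0% and 9.77% of all genes tested. Of the 66 higher genes, 50 were lower in FCS −E than in 2i −E. Igf2 was 8.48 higher in FCS −E on the log2 scale, H19 6.26, Lef1 3.82 and Klhl13 3.90, while Ddr2 was −3.47 and Gm48362 −2.76. Among the lower genes that were not higher in FCS −E were Gbx2 (−1.61) and Apol6 (−3.35).

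Promoters of the called genes were searched for the motif that Nr5a2 and Esrrb share, spelled TCAAGGCCA or TCAAGGTCA, on both strands of the 250 bases before each start in RefSeq's table (GRCm38.p6). Entries matched 89 of the 120 genes, and 11498 of the genes tested. The motif stood before 1 of the 89 (1.12%), against 0.757% of all tested genes with an entry, and before none of 38 lower genes. The match is Psap, encoding the lysosomal protein prosaposin, whose difference was 0.67 ± 0.128 (SE; adjusted p = 0.00922). Its upstream sequence (chr10:60277378-60277627, plus strand) is shown as the only match, with the motif, which is on the opposite strand here and reads TGACCTTGA, in capitals.
Psap promoter: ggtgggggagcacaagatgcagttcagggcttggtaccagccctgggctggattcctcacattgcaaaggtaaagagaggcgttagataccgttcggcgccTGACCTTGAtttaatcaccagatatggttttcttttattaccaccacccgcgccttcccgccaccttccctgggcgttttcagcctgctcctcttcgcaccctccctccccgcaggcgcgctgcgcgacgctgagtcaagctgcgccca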

How the data were processed

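Poly-A RNA of 20 mouse ESC samples was sequenced as stranded paired-end libraries, and the 10 samples of the Nr5a2 comparison are analysed here together with 10 Dox-withdrawn ones. ChIP-seq samples of the series were not analysed here. The authors aligned reads to mm10 with STAR and deposited RSEM expected counts per gene, as whole numbers, and TPM values. The table has 54238 rows, of which 92 spike-in rows (ERCC) hold 0 counts and were removed. Gene types and positions came from GENCODE vM21, which matched 54079 identifiers.

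A gene was kept (16147 in all) if every replicate of 1 or more groups reached 20 counts. The 20 samples were fitted as 8 groups by edgeR 4.0.16 (quasi-likelihood test, TMM normalization, R 4.3.3), without a block, and p-values were adjusted by the Benjamini-Hochberg method over all genes. The medium difference was called at an adjusted p below 0.01. Responses within a medium also needed a change above 1.5-fold, the limits of the study. Intervals are 95% intervals from the same fit. CPM values use TMM-scaled library sizes. The fit was tested on simulated data with 16147 genes and 200 changed medium differences. It recovered 62 of 100 made with a log2 difference of 1 and 94 of 100 made with 2, with 1 false call among the other genes. The changes were made in 2i −N alone, in genes expected at 100 or more counts in 2i +E+N, without a replicate effect. These rates therefore do not cover genes near 0 in 2i +E+N or samples paired by replicate.

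Alternatives were DESeq2 1.42.0 without independent filtering, DESeq2 size factors, no filter, filterByExpr, a replicate block, the 10 samples alone, limma 3.58.1 on TPM in log2 form with a pseudocount of 1 or of 0.1, other limits, and leaving out each sample. Samples of equal replicate number deviated together from their group means in log2 CPM, with correlations between +E+N and −N of 0.312 in FCS/LIF and of 0.46, 0.126 and 0.361 in 2i/LIF. The replicate numbers come from the labels, which do not say what they stand for. Since all correlations were above 0.1, the numbers were taken to pair the samples within a medium. Blocked values are given beside results whose call or count they change. The named genes, standard errors, intervals and main counts come from the fit without the block. That fit called fewer genes, so a gene that it left uncalled may pass with the block. Replicates of a group differed by more than sampling noise (chi-square per degree of freedom of 5.48 to 18.9).

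Named genes were Nr5a2 and Esrrb, 8 pluripotency factors, the 10 largest medium differences in each direction among called genes averaging 100 or more counts and passing the 20-count filter in both media, called genes that moved in opposite directions in the media (none) and called members of gene lists. Genes named outside this rule are marked as such or stand in a list as uncalled members. The comparison, the gene lists and the limits were chosen with earlier results of these data known, so the lists are no independent support.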

Additional observations from a re-analysis of the deposited data

Results flagged for a closer look

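In the results below, the responses of the 2 media differed by a test of the difference itself. The count of genes with a medium difference was 120. The named genes among them with a positive difference (FCS minus 2i, log2) were Rgs11 (4.47), Arhgdig (4.42), Caskin1 (3.11), Ddr2 (3.05), Lcp1 (2.44), Gm48362 (2.18), Gm43549 (2.17), Gm47939 (2.15), C130074G19Rik (2.12), Gm42047 (2.11) and Sparc (1.40). Those with a negative difference were Gbx2 (−1.02), Lefty2 (−1.68), Apol6 (−2.33), Sp8 (−2.48), Ripply1 (−3.01), Lef1 (−3.21), AU015836 (−3.21), Lefty1 (−3.39), Zscan4a (−3.57), Acta2 (−3.72), Igf2os (−4.21), Slc13a4 (−4.69), H19 (−5.09) and Igf2 (−5.45). Groups of 2 or 3 samples were too small to look for outlying samples.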

How the results depend on the processing

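The number of genes with a medium difference (120), and the numbers called in FCS/LIF (17) and 2i/LIF (792), depended on several choices, and the causes were not tested. DESeq2 called 456 medium differences, 119 of them shared with the 120, and 91 genes in FCS/LIF. Without a filter on low counts the numbers were 809, 305 and 1378, and the slope of the FCS/LIF on the 2i/LIF response was 0.018 instead of 0.111. With the replicate block they were 686, 199 and 1327, and 594 of the medium differences exceeded 1.5-fold. The 10 samples alone gave 10 genes in FCS/LIF, and the samples of 1 medium alone gave 30 in FCS/LIF and 501 in 2i/LIF. With limma on log2(TPM + 1), 70 medium differences and 489 genes in 2i/LIF were called, and on log2(TPM + 0.1), 56 medium differences and 8 genes in FCS/LIF. An adjusted p below 0.05 gave 480, 59 and 1317. With 2 of 3 replicates in 2i/LIF, added after seeing the data, medium differences numbered 80, 42 and 79, and genes called in 2i/LIF 493, 303 and 478. Leaving out single samples gave 48 to 126 medium differences, 0 to 21 genes in FCS/LIF and 506 to 752 in 2i/LIF. The medium differences numbered 55, 52, 48 and 55 without FCS +E+N replicate 1 or 2 or FCS −N replicate 1 or 2, and 72 and 67 without replicate 2 of 2i +E+N or 2i −N. FCS/LIF calls numbered 0, 5, 0 and 1 without those same 4 FCS/LIF samples.

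Among named genes the sign changed on both TPM scales for the uncalled Esrrb (0.15) and Sox2 (0.01), and with log2(TPM + 1) for Acta2 (0.19). Leaving out single samples, the sign changed for uncalled pluripotency genes, with ranges of −0.01 to 0.29 for Klf4, −0.09 to 0.20 for Nanog, −0.38 to 0.05 for Tbx3, −0.33 to 0.04 for Esrrb, −0.16 to 0 for Tfcp2l1 and −0.15 to 0.05 for Sox2. Over all named genes and other settings, 188 values kept their side of the limit, 17 lost it and 5 changed sign. With single samples left out, these numbers were 285, 54 and 11, and Acta2, AU015836, Zscan4a and Apol6 lost the call most often, and Sparc, Lefty2, Gbx2, Gm47939, C130074G19Rik, Caskin1 and Slc13a4 lost it in 1 to 5 of 10 fits. Low counts limit the genes that were near 0 in 2i +E+N.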

Other observations

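Medium differences were also computed for Dox withdrawal without and with the Nr5a2 mutation, which share the +E+N samples with the comparison reported here. At an adjusted p below 0.01 (edgeR quasi-likelihood test), 171 genes were called for Dox withdrawal alone and 2136 for both together. After Dox withdrawal, the log2 response of Lefty1 to Nr5a2 loss was 1.14 for 2i/LIF and 0.75 for FCS/LIF, against 3.62 and 0.23 with Dox. For Lefty2 it was −0.26 and 0.89, against 2.09 and 0.41.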
